A study of Mus musculus with 4 samples.

Results

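The homeostatic genes of Muller glia described here are 10 in number: Glul, Rlbp1, Slc1a3, Aqp4, Kcnj10, Dkk3, Apoe, Vim, Sox9 and Aldh1a1. They were taken by symbol from a table of 23278 genes, and the rule itself used no measured value. The list was, however, chosen with earlier results of these data known. All 10 members were listed, and all 10 were among the 13150 genes with a mean of at least 1 FPKM (fragments scaled to the length of the transcript and to the mapped fragments of the library) over the 4 libraries and a usable status in each. Among the 10 genes, Aqp4 and Aldh1a1 differed most between libraries. Both were lowest in the beta catenin stabilization library and lower in the NdpKO rescue library than in NdpKO or WT. Kcnj10 was also lower in both of these stabilized libraries than in NdpKO and WT, by smaller steps, and Glul was lower in each of them than in the library of the same Ndp state. Vim was higher in them, and Sox9 was the most level gene of the set.

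Muller glia are the radial glia of the retina, whose processes run from the vitreal surface to the photoreceptors and wrap neurons and vessels. They clear glutamate, turn it into glutamine, carry potassium and water towards vessels and vitreous, take part in the cone visual cycle and secrete lipoproteins. In the mouse they are also a source of Norrin, the ligand encoded by Ndp, which acts on endothelial cells through the receptor Fzd4 and beta-catenin.

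RNA of whole retinas from mice of a mixed strain (with at least C57BL6 and 129) at postnatal day 10 was sequenced, with 1 library for each of 4 genotypes. The NdpKO rescue library was NdpKO;Ctnnb1flex3/+;Pdgfb-CreER, in which stabilized beta-catenin was combined with the loss of Ndp. The NdpKO library carried the knockout alone, the beta catenin stabilization library was Ctnnb1flex3/+;Pdgfb-CreER with Ndp intact, and the WT library carried neither change. Ctnnb1flex3 is an allele whose exon for the degradation signal of beta-catenin is removed by Cre, which stabilizes the protein. Every mouse, WT included, had been injected with 20 ug of 4HT, the tamoxifen metabolite that activates CreER, at postnatal day 3. Pdgfb-CreER is active in endothelial cells, and Muller glia are not cells in which it is known to act. Among these genotypes it is named only together with Ctnnb1flex3. The presence of active Cre and stabilized beta-catenin therefore cannot be told apart in any comparison of a stabilized library with another. Each library was a pool of RNA from 3 batches, and a batch came from 4 to 8 retinas of 2 to 4 mice. There was therefore no spread between animals to set a difference against, and no p-value could be computed for any comparison. The intervals given are those deposited with each FPKM. The sources used here do not state the level of these intervals, which describe the estimate within a library only.

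Ndp was at 0.869 and 0.873 FPKM in NdpKO rescue and NdpKO, against 2.35 and 2.98 FPKM in stabilization and WT. Xist was at 1.28 and 1.255 FPKM in NdpKO rescue and NdpKO, against 130.4 and 135 FPKM in stabilization and WT, so Ndp genotype and sex cannot be told apart in any comparison across Ndp state. Read totals were not used here. From the widths of the deposited intervals, depth relative to WT was about 0.581 in NdpKO rescue, 0.54 in NdpKO and 0.433 in stabilization. Summed FPKM of the 10 rod markers lay between 6531 and 7650, and that of the 10 Muller glia genes was 908 in NdpKO rescue, 936 in NdpKO, 836 in stabilization and 873 in WT. That sum was between 0.206% and 0.224% of all FPKM in every library. In RNA of whole retina, fewer Muller glia and less of an RNA in each of them cannot be told apart.

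**Figure D1:**
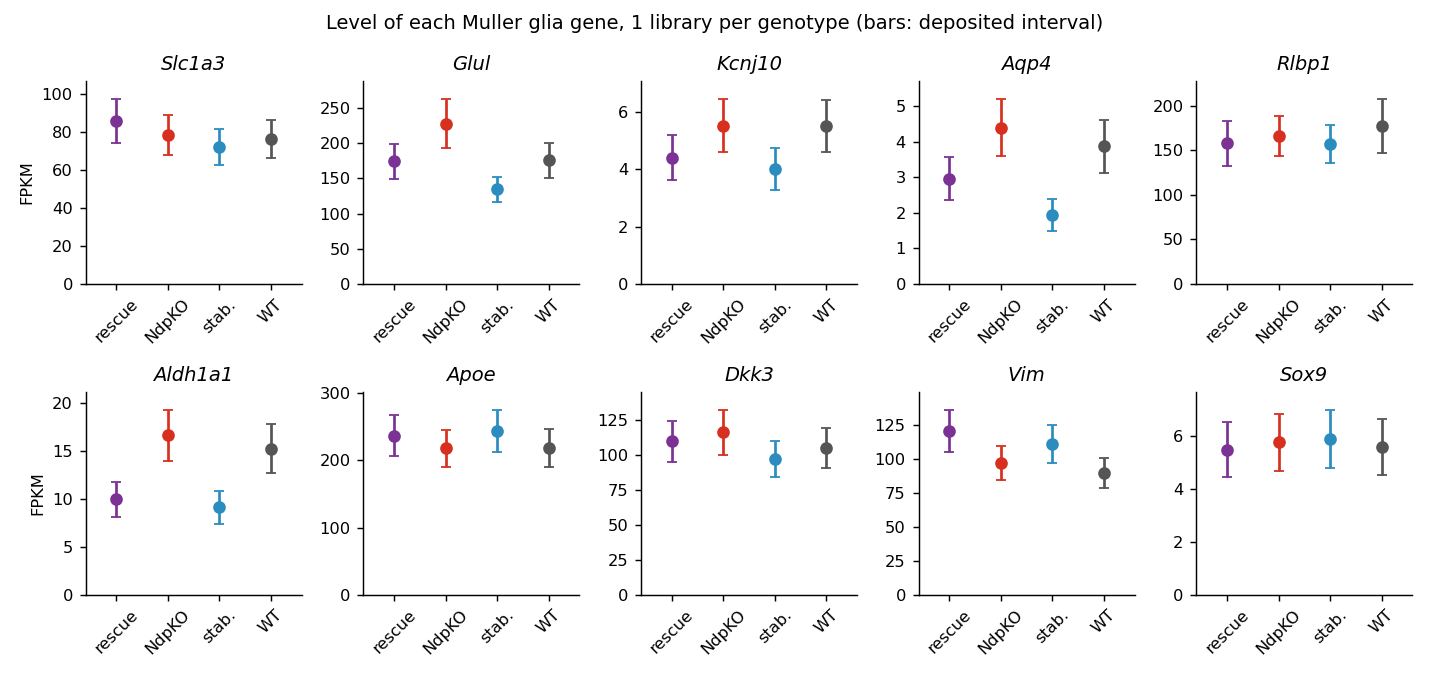
FPKM of each of the 10 genes (vertical axis, linear, from 0) in NdpKO rescue, NdpKO, stabilization and WT, 1 point per library, with the deposited interval as a bar. Aldh1a1 and Aqp4 are lower in NdpKO rescue (9.93 and 2.97 FPKM) and stabilization (9.12 and 1.94 FPKM) than in NdpKO (16.6 and 4.39 FPKM) and WT (15.2 and 3.88 FPKM), and Sox9 is level across the 4.

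The genes fell into an abundant and a scarce group. Apoe, Glul, Rlbp1, Vim, Dkk3 and Slc1a3 lay between 72.0 and 243 FPKM in every library. Aldh1a1, Sox9, Kcnj10 and Aqp4 lay between 1.94 and 16.6 FPKM. In WT the descending order was Apoe, Rlbp1, Glul, Dkk3, Vim, Slc1a3, Aldh1a1, Sox9, Kcnj10 and Aqp4. Intervals overlapped from Apoe to Glul, from Dkk3 to Slc1a3 and from Sox9 to Aqp4, so neighbours within those runs did not differ beyond their intervals. The steps from Glul to Dkk3, from Slc1a3 to Aldh1a1 and from Aldh1a1 to Sox9 did. Glul held the third place in WT and stabilization and the highest level of all in NdpKO, where its interval overlapped that of Apoe. In stabilization Aqp4 was separated from Kcnj10 above it, which it was not in WT. The distance from the value to its deposited bounds was 12.6% to 23.2% of the value, widest for Aqp4 in stabilization.

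Slc1a3 and Glul take up and convert glutamate. Slc1a3 (chromosome 15, 8634124 to 8710764, minus strand; coordinates here and below from GENCODE M21 on GRCm38) encodes GLAST, the main glutamate transporter of Muller glia. Its level was 85.6 FPKM in NdpKO rescue, 78.4 FPKM in NdpKO, 72.0 FPKM in stabilization and 76.3 FPKM in WT. All of these intervals overlapped. Glul (chromosome 1, 153899944 to 153909723, plus strand) encodes glutamine synthetase, which makes glutamine from glutamate and ammonia and is found in the retina in Muller glia. It was at 174 FPKM in NdpKO rescue (deposited interval 149.5 to 199), 228 FPKM in NdpKO (193 to 262), 134 FPKM in stabilization (116 to 152) and 176 FPKM in WT (151 to 201). NdpKO was highest and stabilization lowest, and these were the only 2 libraries whose Glul intervals lay apart. NdpKO rescue and WT were close, with a log2 ratio of -0.02 on the log2(FPKM + 0.5) scale used throughout.

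Kcnj10 and Aqp4 serve potassium and water. Kcnj10 (chromosome 1, 172341210 to 172374085, plus strand) encodes Kir4.1, the inward rectifier through which Muller glia siphon potassium. Its level was 4.39 FPKM in NdpKO rescue, 5.52 FPKM in NdpKO, 4.01 FPKM in stabilization and 5.51 FPKM in WT. NdpKO and WT stood at nearly the same value and both stabilized libraries below them, with all intervals overlapping. Aqp4 (chromosome 18, minus strand) encodes aquaporin-4, the water channel of glial endfeet. It was at 2.97 FPKM in NdpKO rescue (2.36 to 3.58), 4.39 FPKM in NdpKO (3.59 to 5.19), 1.94 FPKM in stabilization (1.49 to 2.38) and 3.88 FPKM in WT (3.14 to 4.62). The highest level was 2.27 times the lowest, the widest spread among the 10 genes. The interval of NdpKO rescue lay just below that of NdpKO, and the interval of stabilization below those of both NdpKO and WT.

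Rlbp1 and Aldh1a1 belong to retinoid metabolism. Rlbp1 (chromosome 7, 79374870 to 79387048, minus strand) encodes CRALBP, which carries 11-cis retinoids in Muller glia and pigment epithelium. Its level was 158 FPKM in NdpKO rescue, 166 FPKM in NdpKO, 157 FPKM in stabilization and 177 FPKM in WT, with all intervals overlapping. Aldh1a1 (chromosome 19, 20492715 to 20643465, plus strand) encodes a retinaldehyde dehydrogenase that makes retinoic acid, and in the mouse retina it is known for higher expression dorsally. It was at 9.93 FPKM in NdpKO rescue (8.09 to 11.8), 16.6 FPKM in NdpKO (13.9 to 19.2), 9.12 FPKM in stabilization (7.40 to 10.8) and 15.2 FPKM in WT (12.7 to 17.7). Each stabilized library lay apart from each of the others, and the pairs of like state overlapped. Aldh1a7, a near-identical neighbour of the same family, was at 1.75, 2.62, 1.32 and 1.89 FPKM in the same order of libraries. How fragments were divided between the pair is unknown, so the level of each is uncertain by that split.

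Apoe and Dkk3 encode secreted proteins. Apoe (chromosome 7, 19696109 to 19699188, minus strand), the lipid carrier apolipoprotein E, was at 236 FPKM in NdpKO rescue, 218 FPKM in NdpKO, 243 FPKM in stabilization and 218 FPKM in WT. It is also made by microglia, whose 11 markers summed to 54.6, 46.1, 47.0 and 52.8 FPKM in the same order of libraries, and none of those markers was at 0. Their part in the Apoe level was not tested. Dkk3 (chromosome 7, 112116017 to 112159057, minus strand), a divergent Dickkopf family member, was at 110 FPKM in NdpKO rescue, 116 FPKM in NdpKO, 97.5 FPKM in stabilization and 105 FPKM in WT. Neither gene had a pair of libraries with intervals apart.

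Vim (chromosome 2, 13573927 to 13582826, plus strand), the intermediate filament protein vimentin, was at 121 FPKM in NdpKO rescue (105.5 to 136), 97.2 FPKM in NdpKO (84.9 to 109), 111 FPKM in stabilization (96.9 to 125) and 89.7 FPKM in WT (78.4 to 101). Both stabilized libraries were higher than both others, and only NdpKO rescue and WT had intervals apart. Vimentin is also made by astrocytes, endothelial and mural cells. In the order NdpKO rescue, NdpKO, stabilization and WT, the 10 endothelial markers summed to 83.3, 51.6, 87.1 and 55.4 FPKM, the 8 mural markers to 34.6, 15.7, 36.9 and 23.5 FPKM and the 10 astrocyte markers to 166, 134, 150.1 and 145 FPKM. No marker of these lists was at 0, and their part in the Vim level was not tested. Sox9 (chromosome 11, 112782224 to 112787760, plus strand), a transcription factor of Muller glia and progenitors, was at 5.49 FPKM in NdpKO rescue, 5.77 FPKM in NdpKO, 5.89 FPKM in stabilization and 5.59 FPKM in WT. Its highest level was 1.07 times its lowest.

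Promoters are shown for 4 of the 5 genes whose log2 ratios for stabilization were the largest in size on both Ndp backgrounds, Aqp4 being the fifth, to place their sequence beside the values. They span 250 bases before to 50 after the annotated start, from RefSeq on GRCm38.p6, the mm10 assembly. Those of Aldh1a1 (chr19:20601718-20602017), Glul (chr1:153899679-153899978) and Kcnj10 (chr1:172340960-172341259), lower with stabilization, and of Vim (chr2:13574061-13574360), higher with it, all lie on the plus strand. The start nearest the deposited locus was used. Capitals mark the SOX motifs ACAATG and ACAAAG, the TCF/LEF motif TCAAAG and the TATA motif TATAAA, each searched on both strands. The SOX motif ACAAAG and the TCF/LEF motif share the letters CAAAG at their ends.
Aldh1a1: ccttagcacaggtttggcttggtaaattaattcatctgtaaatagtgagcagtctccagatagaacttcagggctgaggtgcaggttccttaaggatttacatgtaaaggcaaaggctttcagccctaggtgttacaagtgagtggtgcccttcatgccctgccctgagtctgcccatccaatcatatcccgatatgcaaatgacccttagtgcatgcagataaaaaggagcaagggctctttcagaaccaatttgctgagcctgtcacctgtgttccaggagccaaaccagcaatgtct
Glul: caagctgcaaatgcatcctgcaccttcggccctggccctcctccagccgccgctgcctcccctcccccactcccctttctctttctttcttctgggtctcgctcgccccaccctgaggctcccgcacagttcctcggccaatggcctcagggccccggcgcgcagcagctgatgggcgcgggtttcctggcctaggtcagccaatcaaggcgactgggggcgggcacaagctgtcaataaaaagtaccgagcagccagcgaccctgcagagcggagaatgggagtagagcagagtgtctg
Kcnj10: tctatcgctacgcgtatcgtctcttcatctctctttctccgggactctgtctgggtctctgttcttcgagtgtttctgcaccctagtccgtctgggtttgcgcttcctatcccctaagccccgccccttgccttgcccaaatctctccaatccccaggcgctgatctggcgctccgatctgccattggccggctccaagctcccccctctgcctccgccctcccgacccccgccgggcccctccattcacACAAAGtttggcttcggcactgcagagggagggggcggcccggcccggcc
Vim: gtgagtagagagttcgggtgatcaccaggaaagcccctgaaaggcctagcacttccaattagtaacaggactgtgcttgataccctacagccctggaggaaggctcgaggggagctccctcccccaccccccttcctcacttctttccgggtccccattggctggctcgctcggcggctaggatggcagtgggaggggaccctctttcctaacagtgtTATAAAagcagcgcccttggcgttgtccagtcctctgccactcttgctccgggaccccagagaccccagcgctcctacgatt

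The Aldh1a1 and Glul windows held none of these motifs. The Kcnj10 window held ACAAAG at the annotated start, and the Vim window held TATAAA, which begins 32 bases before the start. Promoters were read for 7 of the 10 genes, which also include Rlbp1, Slc1a3 and Apoe but not Aqp4, Dkk3 or Sox9. Of these 7, 1 held ACAATG, beside 12.6% of all 32851 promoters of this length, 3 held ACAAAG, beside 18.7%, and 3 held TATAAA, beside 13.6%. None held TCAAAG, beside 5257 of the 32851, which says only that these letters are not in these windows.

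The comparison of stabilization with WT addressed the response to endothelial beta-catenin with Ndp intact. Aqp4 had a log2 ratio of -0.85, and Aldh1a1 -0.71. Without the pseudocount these are 0.499 and 0.599 times the WT FPKM, and such plain ratios are the ones given as times below. These 2 of 10 genes were at least 1.5-fold lower and both had intervals apart, whereas 1.71% of all tested genes were 1.5-fold lower and 1.57% had a lower interval apart. No member was 1.5-fold higher or had a higher interval apart, beside 1.67% and 1.76% of all tested genes. Kcnj10 (-0.41) and Glul (-0.39) followed, then Rlbp1 (-0.18), Dkk3 (-0.11) and Slc1a3 (-0.08). Vim (0.31), Apoe (0.16) and Sox9 (0.07) had positive ratios. The median of the 10 was -0.14, beside -0.02 over all tested genes, and 115 of the 13150 tested genes were as low as Aqp4 or lower.

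The comparison of NdpKO rescue with NdpKO addressed the same activation without Ndp. Aldh1a1 was again at least 1.5-fold lower, with a log2 ratio of -0.71, or 0.599 times the NdpKO FPKM. It was the 1 member past that fold, beside 0.92% of all tested genes. Aqp4 had a log2 ratio of -0.50, or 0.675 times, which is short of 1.5-fold, but its intervals were apart. The 2 members with a lower interval apart stood beside 0.487% of all tested genes. No member was 1.5-fold higher or had a higher interval apart, beside 1.76% and 1.26%. Glul had a ratio of -0.39, Kcnj10 -0.30 and Vim 0.31, and the median of the 10 was -0.08, beside 0.03 over all tested genes.

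**Figure D2:**
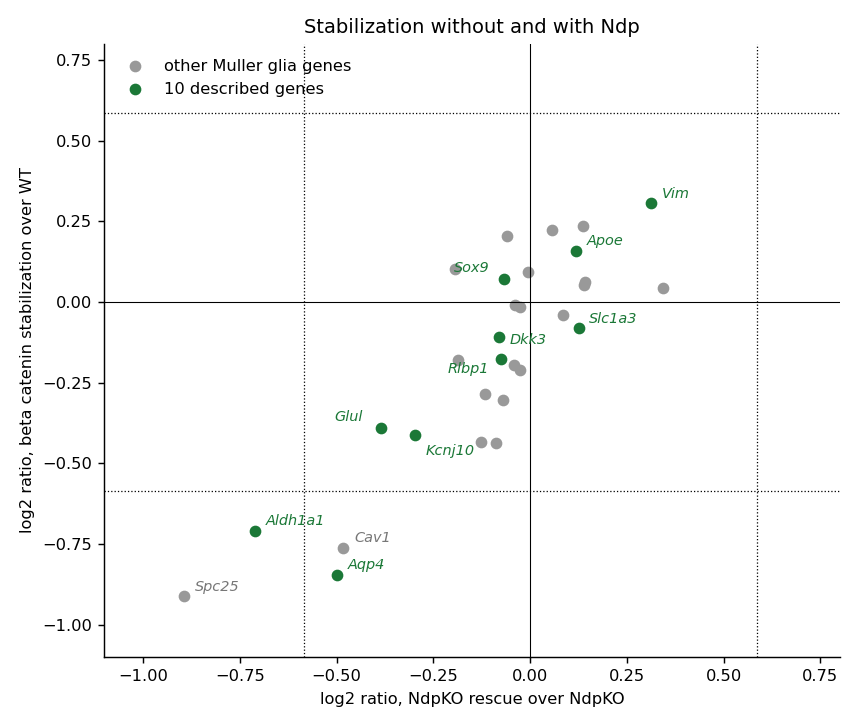
Log2 ratio of NdpKO rescue over NdpKO (horizontal) against that of stabilization over WT (vertical) for the 10 described genes (green) and 20 other Muller glia genes (grey), with dotted lines at 1.5-fold. Aldh1a1 lies beyond 1.5-fold on both axes (-0.71 and -0.71), Aqp4 on the vertical axis only (-0.50 and -0.85), and Vim is positive on both (0.31 and 0.31).

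These pairs share no library, so stabilization was read once on each Ndp background. Of the 10 genes, Glul, Rlbp1, Aqp4, Kcnj10 and Aldh1a1 were lower in both stabilized libraries than in both others, and Apoe and Vim were higher. The step between NdpKO rescue and WT was small for Glul (-0.02), and it turned to 0.0036 with library totals equalized without short RNA genes. Of all tested genes, 23.9% were ordered in the first way and 29.2% in the second. The log2 ratio without Ndp minus that with Ndp was 0.005 for Glul, 0.007 for Vim and -0.002 for Aldh1a1. It was 0.35 for Aqp4, whose ratio was thus nearer 0 without Ndp than with it. The central 90% of all tested genes ran from -0.26 to 0.41 for this quantity, and the difference for Aqp4 was not tested because each genotype has 1 library.

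**Figure D3:**
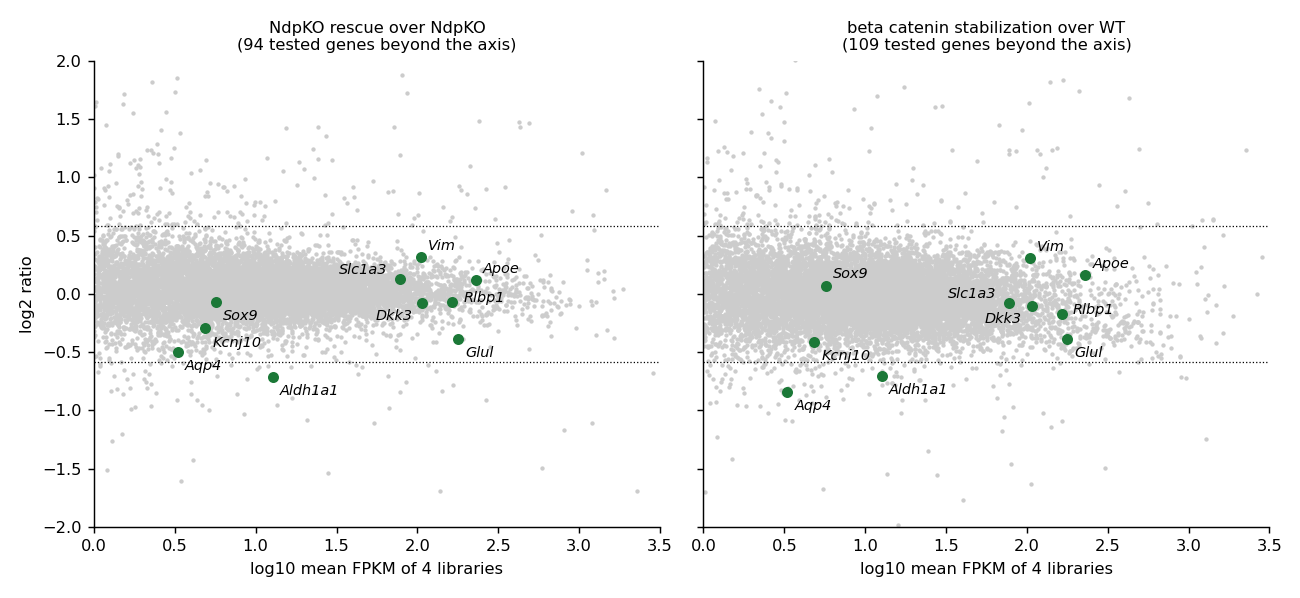
Log2 ratio (vertical) against log10 of the mean FPKM over the 4 libraries (horizontal) for all tested genes (grey) and the 10 described genes (green), for NdpKO rescue over NdpKO (left) and stabilization over WT (right), with dotted lines at 1.5-fold. Aldh1a1 lies below the lower line in both panels (-0.71 in each) and Aqp4 in the right panel (-0.85).

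The comparison of NdpKO with WT addressed loss of Norrin with unmodified beta-catenin. No member was 1.5-fold apart in either direction, beside 0.966% of all tested genes higher and 1.22% lower. No member had intervals apart, beside 0.433% higher and 0.327% lower. Glul had the largest ratio, 0.37, or 1.29 times the WT FPKM, followed by Aqp4 (0.16) and Dkk3 (0.14). Rlbp1 was lowest at -0.09, and the median of the 10 was 0.08, beside -0.02 over all tested genes. The same loss in the presence of stabilization, NdpKO rescue against stabilization, gave Aqp4 0.51, Glul 0.37, Slc1a3 0.25 and Sox9 -0.09. No member reached 1.5-fold, beside 0.981% higher and 0.692% lower over all tested genes, and none had intervals apart, beside 0.312% and 0.213%. Aqp4 stood near that fold, at 1.53 times without a pseudocount and at a log2 ratio of 0.59 with a pseudocount of 0.1. Glul was thus 1.29 times as high in NdpKO as in WT and 1.30 times as high in NdpKO rescue as in stabilization, with overlapping intervals in each pair.

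NdpKO rescue against WT compared the combined genotype with neither change. Aldh1a1 was the 1 member at least 1.5-fold lower (-0.59, or 0.652 times), beside 1.07% of all tested genes, and it narrowly passed that fold. With a pseudocount of 1 its ratio was -0.57, and with a trend on transcript length and GC content removed it was -0.53, both short of 1.5-fold. No member was 1.5-fold higher, beside 1.79%. Vim (0.43, or 1.35 times) was the 1 member with a higher interval apart, beside 2.02%, and Aldh1a1 the 1 member with a lower one, beside 0.464%. Aqp4 had a ratio of -0.34, Kcnj10 -0.30 and Glul -0.02. The comparisons against WT share that library, and those of NdpKO rescue share theirs, so their values are not independent of one another.

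Other genes known from Muller glia were read from a list of 20, all of which passed the minimum mean. In stabilization against WT, 2 were at least 1.5-fold lower, Spc25 (-0.91), a kinetochore subunit, and Cav1 (-0.76), the caveolae protein caveolin-1. None was higher, and the list median was -0.03. Dbi (-0.43), Prdx6 (-0.44), Spc25 and Cav1 had intervals apart. In NdpKO rescue against NdpKO, Spc25 alone was 1.5-fold lower (-0.89), Cav1 had a ratio of -0.48 with overlapping intervals, and the median was -0.04. Spc25 was at 12.1 FPKM in NdpKO rescue, 23.0 FPKM in NdpKO, 11 FPKM in stabilization and 21.1 FPKM in WT, an order of libraries like that of Aldh1a1. Caveolin-1 is also abundant in endothelial cells, whose summed markers were higher in the same libraries in which Cav1 was lower, and their part in its level was not tested. Dbi, which encodes a binding protein of acyl-CoA, was the most abundant, at 286, 312, 250 and 338 FPKM in NdpKO rescue, NdpKO, stabilization and WT. Carbonic anhydrase 2 (Car2) was at 214, 225, 186 and 229.9 FPKM in the same order. In NdpKO against WT none of the 20 was 1.5-fold apart.

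Among genes of the same pathways, the 14 tested genes of glutamate handling had medians of 0.14 in stabilization against WT and 0.13 in NdpKO rescue against NdpKO. Their only member past 1.5-fold in either was Slc38a5 (1.48 and 1.45), a glutamine transporter also used by endothelium. Got1, an aspartate aminotransferase and the most abundant of the list, was at 80.8, 75.1, 73.5 and 69.0 FPKM in NdpKO rescue, NdpKO, stabilization and WT. Slc38a3, the glutamine transporter SNAT3, was at 78.0, 73.8, 71.3 and 68.9 FPKM in the same order. The 10 tested genes for water and potassium, which bind or accompany Kcnj10 and Aqp4 or are other channels, had medians of 0.03 and 0.11. Atp1b2, a sodium pump subunit and the most abundant of this list, was at 481, 451, 466 and 399 FPKM in NdpKO rescue, NdpKO, stabilization and WT. The dystrophin-complex genes Dag1 (0.34 and 0.28), Dmd (-0.00 and -0.06) and Dtna (-0.28 and 0.13) lay within 1.5-fold, and so did Aqp1 (-0.39 and -0.47). Aqp1 was 1.5-fold higher in NdpKO than in WT (0.65), at 4.29 against 2.55 FPKM with intervals apart.

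Of the 11 tested retinoid genes, Rpe65 (0.72) and Rgr (0.59), both also on the pigment epithelium list, were 1.5-fold higher in stabilization than in WT. In NdpKO rescue against NdpKO their ratios were -0.42 and 0.14, and Cyp26a1 (0.65), a retinoic acid hydroxylase, was 1.5-fold higher. The 9 pigment epithelium markers summed to 47.8 FPKM in NdpKO rescue, 60.1 FPKM in NdpKO, 66.9 FPKM in stabilization and 54.1 FPKM in WT, with none at 0. That tissue also makes Rlbp1, and its part in the Rlbp1 level was not tested. The medians of the retinoid list were -0.20 in stabilization against WT and -0.04 in NdpKO rescue against NdpKO. Crabp1, a cellular retinoic acid binding protein and the most abundant of the list, was at 67.0, 63.7, 62.1 and 71.9 FPKM in NdpKO rescue, NdpKO, stabilization and WT.

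Of 10 tested lipid carrier and receptor genes, Abca1, which loads lipid onto apolipoproteins, was 1.5-fold higher in stabilization than in WT (0.77) and in NdpKO rescue than in NdpKO (0.75), with intervals apart in both. Its neighbours in function Abcg1 (0.35 and 0.32) and Lrp1 (0.37 and 0.30) lay within 1.5-fold, and the list medians were 0.21 and 0.27. Clusterin (Clu), the most abundant, was at 44.1, 44.3, 36.1 and 33.8 FPKM in NdpKO rescue, NdpKO, stabilization and WT. Of 8 tested filament genes, all had positive ratios in stabilization against WT and 7 of 8 in NdpKO rescue against NdpKO. Filament medians were 0.42 and 0.18, beside -0.02 and 0.03 over all tested genes. Gfap, the filament of astrocytes and of reactive Muller glia, was at 8.80, 6.38, 7.10 and 4.02 FPKM in NdpKO rescue, NdpKO, stabilization and WT, so WT was lowest for Gfap as for Vim. Gfap was the only filament gene at least 1.5-fold higher in stabilization than in WT (0.75) and in NdpKO than in WT (0.61), with intervals apart in both, and its ratio in NdpKO rescue against NdpKO was 0.44. In that last comparison Nes, the filament nestin, was the only one past 1.5-fold (0.60), also with intervals apart, and in stabilization against WT its ratio was 0.55. Ina, a filament of neurons and the most abundant of the list, was at 60.9, 52.4, 59.4 and 44.2 FPKM in the same order. Of 15 tested glial fate genes none was 1.5-fold apart in stabilization against WT. In NdpKO rescue against NdpKO the only one was Id1 (-0.84), an inhibitor of basic helix-loop-helix factors, and the list medians were 0.06 and -0.03. Rax (0.22 and 0.06), the most abundant of these, Sox2 (0.24 and 0.14) and Sox8 (0.06 and 0.14) lay within 1.5-fold. The Dickkopf list had 2 tested genes, Kremen1 and Kremen2, both within 1.5-fold.

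Markers of other cell types were read in the same comparisons. In stabilization against WT, 5 of 8 tested endothelial markers (median 1.07) and 4 of 6 mural markers (0.88) were at least 1.5-fold higher, led by Cldn5 (1.43) and Acta2 (1.18). In NdpKO rescue against NdpKO the same counts were 5 of 8 (0.88) and 4 of 6 (0.83), led by the same genes (3.87 and 1.63). The 9 astrocyte markers, led by Pdgfra (0.76 and 0.93), had medians of 0.30 and 0.34. The 8 tested gliosis genes had medians of 0.31 and 0.36, and among the 15 listed Edn2 and Ccl2 were at 0 in at least 1 library. Gfap is on the astrocyte, gliosis and filament lists, and Nes on the gliosis and filament lists. The medians of these lists are therefore not independent of one another. Rod medians were -0.04 and -0.09, with Gnat1 the only rod marker past 1.5-fold (-0.16 and -0.91). Cone medians were -0.30 and -0.18, with the cone opsin Opn1mw lowest (-1.55 and -0.95). Bipolar (-0.01 and 0.01), amacrine and horizontal (0.06 and 0.10), microglial (-0.05 and 0.21), progenitor (0.06 and -0.02) and ganglion cell medians (0.37 and 0.15) followed. Pigment epithelium medians were 0.39 and -0.13. Of the 6 tested markers of that list, 3 were at least 1.5-fold higher in stabilization against WT, beside 1.67% of all tested genes. In NdpKO rescue against NdpKO it was 0 of 6, beside 1.76%. Whether any of these bears on the levels of Aqp4 and Aldh1a1 was not tested.

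**Figure D4:**
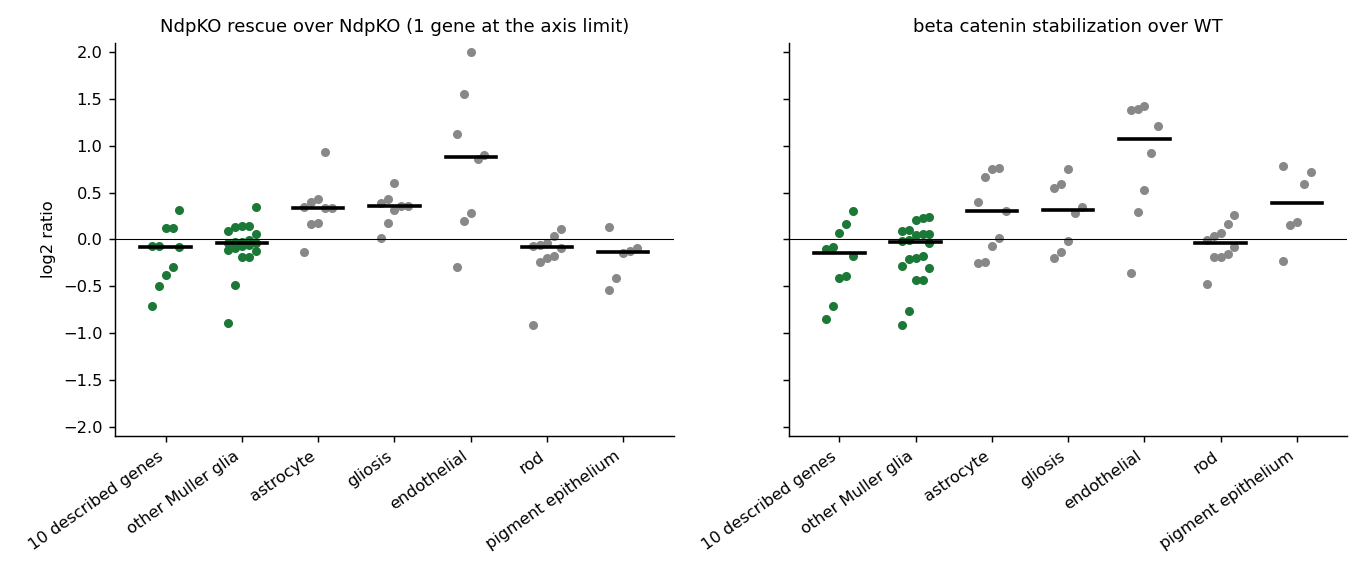
Log2 ratio (vertical) of each tested gene in 7 lists for NdpKO rescue over NdpKO (left) and stabilization over WT (right), with the list median as a bar. The medians of the 10 described genes (-0.08 and -0.14) and of the other Muller glia genes (-0.04 and -0.03) lie near 0, below those of the astrocyte (0.34 and 0.30), gliosis (0.36 and 0.31) and endothelial lists (0.88 and 1.07). The rod medians are -0.09 and -0.04, and the pigment epithelium medians -0.13 and 0.39. Cldn5 (3.87, left) is drawn at the axis limit.

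Profiles most like those of Aqp4 and Aldh1a1, the members of widest range, were sought among 8872 genes with a mean of at least 5 FPKM, by the Euclidean distance between centred log2 values over the 4 libraries. Nearest to Aqp4 were Gng13, Lrtm1 and Sebox, at distances of 0.14, 0.15 and 0.16. Gng13, a G protein gamma subunit of ON bipolar cells, was at 35.8 FPKM in NdpKO rescue, 54.9 FPKM in NdpKO, 28.6 FPKM in stabilization and 47.9 FPKM in WT. Nearest to Aldh1a1 were Slc29a1, a nucleoside transporter, Gng13 and Dip2c, at 0.15, 0.16 and 0.17. A profile over 4 libraries has few ways to differ, so these are descriptions of likeness in these libraries.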

How the data were processed

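RNA of whole retinas was sequenced in 4 pooled libraries. For every gene, the table that the authors deposited holds each library's FPKM, the bounds of its interval and a status. The submitters' processing notes name TopHat, Cuffdiff and mm10. The sources used here state neither their versions and annotation nor strand and read totals. FPKM are relative within a library. Columns were assigned by the number that each shares with the description of a single sample, and all columns found a sample.

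Ratios were taken as log2 of FPKM plus 0.5, which understates changes of low genes. The minimum was a mean of 1 FPKM with status OK in all 4 libraries, and 145 genes had another status. A gene past 1.5-fold, or with deposited intervals apart, was counted in 5 comparisons, none of which allows a test. The ratios and counts were checked on simulated data with planted folds, all larger than 1.5-fold. Recovery was required only for the more abundant genes. The check covers the arithmetic and does not bear on calls near 1.5-fold or on low genes. The 10 genes and the 20 other lists were chosen with earlier results of these data known. All members are named. Other lists are given by counts and medians, naming at most 3 genes per direction past 1.5-fold and, for Muller glia and pathway lists, the most abundant. Genes named beyond that rule, among them Aldh1a7, Car2, Slc38a3, Abcg1, Lrp1, Sox2, Sox8, the dystrophin-complex genes and the genes of dorsal and ventral retina, were chosen after their values were seen. Some genes of these lists are not reported here.

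GENCODE M21 gave coordinates. It places another gene over 4 of the members, on the other strand for Glul, Aqp4 and Aldh1a1, whose reads cannot be told from theirs without strand. These overlaps were read over the GENCODE spans, which for Aldh1a1 and Aqp4 reach beyond the deposited locus. An overlap there need not fall in the part that was quantified. The alternatives were pseudocounts of 0.1 and 1, a minimum of 5 FPKM, no minimum, ratios centred on the median gene, equal library totals with or without short RNA genes, all statuses, a threshold of 0.32 (log2), intervals apart and leaving out the largest member. Removing a trend fitted robustly as a cubic of GC content and transcript length, known for 90.5% of tested genes, was chosen after seeing the data. Relative depth was read from the commonest squared ratio of value to SD among low genes, taking the distance to the upper bound as 2 SD. It is approximate, and no counts were recovered. Work was done in Python 3.11.15 with statsmodels 0.14.6, pandas 2.3.3, numpy 2.4.6 and, for plots, matplotlib 3.10.9.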

Additional observations from a re-analysis of the deposited data

Results flagged for a closer look

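A few genes had ratios of opposite sign on the 2 backgrounds, with 1 library on each side, and the difference was not tested. For stabilization, Slc1a3 had a log2 ratio of 0.125 in NdpKO rescue against NdpKO and -0.0821 in stabilization against WT, and Sox9 had -0.0673 and 0.0701. For loss of Ndp, Rlbp1 had 0.0101 in NdpKO rescue against stabilization and -0.0925 in NdpKO against WT, and Sox9 had -0.0946 and 0.0428. With library totals equalized without short RNA genes, the ratio of Slc1a3 in stabilization against WT was 0.0014, so its signs were no longer opposite. That of Rlbp1 in NdpKO rescue against stabilization was -0.03 with ratios centred on the median gene, -0.06 with equal totals and -0.05 without short RNA genes, so its signs were no longer opposite either. The deposited intervals overlapped in each of these pairs. Opposite signs were found for 2 of 10 members in each contrast, beside 33.1% of all tested genes for stabilization and 49.5% for loss of Ndp.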

How the results depend on the processing

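No paired analysis was possible because each genotype has 1 library, and for the same reason no replicate could be left out. All 440 values of single members under an alternative kept within the deposited error of their ratio, with shifts of -0.12 to 0.11. The medians of the 10 genes were small and moved more in proportion. In stabilization against WT the median of -0.14 became -0.08 with equal library totals, -0.06 with equal totals without short RNA genes and -0.10 with a minimum of 5 FPKM. For NdpKO rescue against stabilization 0.12 became 0.05 and 0.06 with these totals. The median of -0.02 in NdpKO rescue against WT became 0.02 with a minimum of 5 FPKM, -0.03 with equal totals, -0.002 with totals without short RNA genes and -0.04 with the length and GC trend removed. In NdpKO against WT, 0.08 became 0.04 without the largest member. Aqp4 in stabilization against WT stayed at least 1.5-fold lower in all 8 alternatives that kept it (-0.97 to -0.73), and Aldh1a1 in all 9, there (-0.73 to -0.62) and in NdpKO rescue against NdpKO (-0.76 to -0.69). In NdpKO rescue against WT, Aldh1a1 stayed so in 7 of 9 (-0.62 to -0.53). The alternatives with a minimum of 5 FPKM, no minimum or all statuses cannot change the ratio of a single gene. Their values in these counts and among the 440 therefore equal the main ones by construction.

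Counts of members moved as follows. With the threshold lowered to a log2 ratio of 0.32, 1 was higher in NdpKO against WT, 4 lower in stabilization against WT, 3 lower in NdpKO rescue against NdpKO, 1 higher and 2 lower in NdpKO rescue against WT and 2 higher in NdpKO rescue against stabilization. Lower members in stabilization against WT numbered 1 with a minimum of 5 FPKM, which drops Aqp4, and 1 without the largest member. Without the largest member none (0) was lower in NdpKO rescue against NdpKO or against WT. By intervals apart, 2 were lower in NdpKO rescue against NdpKO and 1 higher in NdpKO rescue against WT. In NdpKO rescue against WT, 0 were lower with a pseudocount of 1 or with the length and GC trend removed (an alternative chosen after seeing the data), and the cause was not tested. With a pseudocount of 0.1, 1 was higher in NdpKO rescue against stabilization, Aqp4 at 0.59. Depth is known only roughly, and the shallowest library by that estimate, stabilization, is also the one in which Aqp4 was lowest.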

Other observations

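Aldh1a1 and the cone opsin Opn1mw, both known for higher expression in dorsal mouse retina, were lower in both stabilized libraries. Opn1mw was at 9.22 FPKM in NdpKO rescue, 18.3 FPKM in NdpKO, 6.56 FPKM in stabilization and 20.1 FPKM in WT, with intervals apart within each stabilization pair. Other dorsal genes, listed after those values were seen, were not lower in the same way. Tbx5 was at 0.768, 1.02, 1.02 and 1.01 FPKM, Tbx2 at 58.2, 50.6, 65.1 and 51.9 FPKM and Efnb2 at 12.6, 12.8, 13.3 and 12.9 FPKM in NdpKO rescue, NdpKO, stabilization and WT. Tbx5 was not among the tested genes, and its intervals were wide at this low level (0.533 to 1.00 in NdpKO rescue, 0.724 to 1.31 in NdpKO). The ventral genes Vax2 (16.5, 16.4, 15.7 and 15.7 FPKM) and Ephb2 (17.1, 14.0, 16.7 and 13.5 FPKM) were not higher in both stabilized libraries beyond their intervals, nor was the mostly ventral opsin Opn1sw (90.7, 89.4, 82.5 and 86.5 FPKM). Tbx3 and Efnb1 among the dorsal genes and Ephb3 and Aldh1a3 among the ventral ones also had overlapping intervals within both stabilization pairs. Aldh1a3, like Tbx5, was not among the tested genes.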
